A study of Mus musculus with 16 samples.

Results

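Endothelial identity genes are genes by which the inner cell layer of blood vessels is recognised, and 32 of them, chosen by name, were followed in mouse aorta among the 28095 genes named on the array. All 32 were found by gene name, and each was read by its brightest probe. The aortas came from female C57BL/6 mice lacking apolipoprotein E, a strain prone to atherosclerosis. All mice were ovariectomized at 4 to 5 weeks of age, were given a subcutaneous pellet 2 weeks later and were fed a high-fat Western-type diet. Pellets released either the progestin medroxyprogesterone acetate (MPA), the progestin norethisterone acetate (NET-A) or a placebo for 90 days, and aortas were collected after 78 to 90 days. MPA and NET-A are synthetic progestins used in contraception and hormone therapy, and the labels state no dose. The 4 groups were MPA, its own placebo (placebo M), NET-A and its own placebo (placebo N), with 4 arrays each. The loss of apolipoprotein E, the loss of the ovaries and the diet were shared by all 4 groups, so none of the comparisons speaks to them. The labels number the samples without stating that each was a separate animal, so p-values reflect only how far these samples vary, which may be technical variation.

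The endothelium is held together by junctions of VE-cadherin, PECAM1 and claudin 5, and it senses VEGF and angiopoietins through the receptor tyrosine kinases of the VEGF receptor and TIE families. Its gene programme is maintained by ETS-family factors such as ERG and FLI1 together with the SOXF factors SOX7, SOX17 and SOX18. In atherosclerosis-prone arteries this layer is where leukocytes and lipoproteins enter the wall. Whole aorta also holds smooth muscle, adventitia, attached fat and blood cells, and fewer endothelial cells cannot be told apart from less endothelial RNA per cell in such tissue.

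Promoter sequences from RefSeq (GRCm38.p6) were available for 17 of the 32 genes, each taken as the 250 bases before an annotated start. The promoters of the 5 genes that are described array by array below and have an entry are shown, because the members include the ETS and SOX factors whose core motifs were searched in them. Egfl7 has several annotated starts and the one with the lowest coordinate is shown, chr2:26580833-26581082 (plus strand). The others lie at chr5:147726012-147726261 (minus strand) for Flt1, chr6:60944067-60944316 (plus strand) for Mmrn1, chr9:37401722-37401971 (plus strand) for Robo4 and chr5:75978456-75978705 (minus strand) for Kdr. Capitals mark the ETS core AGGAAG or its reverse complement CTTCCT, and the SOX core AACAAT or its reverse complement ATTGTT.
Egfl7: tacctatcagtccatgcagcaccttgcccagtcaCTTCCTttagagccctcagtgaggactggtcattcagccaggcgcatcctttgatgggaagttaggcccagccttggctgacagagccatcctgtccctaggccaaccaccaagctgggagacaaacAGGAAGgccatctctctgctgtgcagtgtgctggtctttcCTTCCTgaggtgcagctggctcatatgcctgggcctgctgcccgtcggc
Flt1: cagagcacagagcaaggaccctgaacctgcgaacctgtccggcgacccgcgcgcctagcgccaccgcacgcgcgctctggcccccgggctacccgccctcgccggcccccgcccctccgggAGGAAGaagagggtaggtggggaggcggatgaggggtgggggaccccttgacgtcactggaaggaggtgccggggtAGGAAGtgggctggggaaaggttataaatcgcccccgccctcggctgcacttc
Mmrn1: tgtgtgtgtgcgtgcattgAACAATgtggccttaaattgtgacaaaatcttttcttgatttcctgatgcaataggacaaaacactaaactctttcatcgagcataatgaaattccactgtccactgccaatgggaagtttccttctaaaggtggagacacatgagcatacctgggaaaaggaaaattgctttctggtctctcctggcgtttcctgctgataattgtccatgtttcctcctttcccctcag
Robo4: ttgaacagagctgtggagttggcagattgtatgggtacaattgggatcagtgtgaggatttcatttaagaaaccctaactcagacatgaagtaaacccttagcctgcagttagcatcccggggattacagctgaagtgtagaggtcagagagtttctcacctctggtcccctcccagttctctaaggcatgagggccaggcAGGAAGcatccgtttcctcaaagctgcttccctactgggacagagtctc
Kdr: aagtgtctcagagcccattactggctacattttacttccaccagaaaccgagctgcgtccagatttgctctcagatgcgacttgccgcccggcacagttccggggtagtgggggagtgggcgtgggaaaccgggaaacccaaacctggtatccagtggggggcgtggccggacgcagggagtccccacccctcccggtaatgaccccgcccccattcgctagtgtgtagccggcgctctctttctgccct
A gene with several annotated starts, such as Egfl7 and Erg, was counted when any of its windows held the core. The ETS core stood on either strand in 10 of the 17 members (58.8%), against 32.3% of the 27025 genes with a promoter in the table. The SOX core stood in 4 of the 17 members (23.5%), against 10.9% of all genes. The Kdr window held neither set of letters, the Mmrn1 window held the SOX core, and the windows of Egfl7, Flt1 and Robo4 held the ETS core. A match describes letters only and is not a measured binding site.

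The arrays were one-colour Agilent arrays, and a level is given as log2 of the processed spot intensity minus the 75th percentile of its array, so that 0 is the intensity of that percentile. The share of spots well above background ran from 46.3%, on MPA replicate 2, to 60.6% over the arrays of MPA and placebo M. Over the arrays of NET-A and placebo N it ran from 62.3%, on NET-A replicate 1, to 78.5%. MPA and placebo M shared slides 1 and 2, and NET-A and placebo N shared slides 3, 4 and 5. All 9 genes of a smooth muscle list, the main cell type of the aortic wall, could be tested in both experiments. Of the endothelial genes, 30 of 32 were well above background on all 16 arrays. The exceptions were Flt4, a VEGF-C receptor best known from lymphatic vessels, and Cyyr1, a cysteine- and tyrosine-rich membrane protein. Flt4 was well above background on 1 MPA array, no placebo M array, 3 NET-A arrays and 1 placebo N array, and Cyyr1 on 2 NET-A arrays and on no array of the other groups. A gene was tested when it was well above background on at least 4 of the 8 arrays of an experiment, which kept 30 members in the MPA experiment and 31 in the NET-A experiment. No fold is given for Cyyr1 in either experiment or for Flt4 in the MPA experiment.

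**Figure D1:**
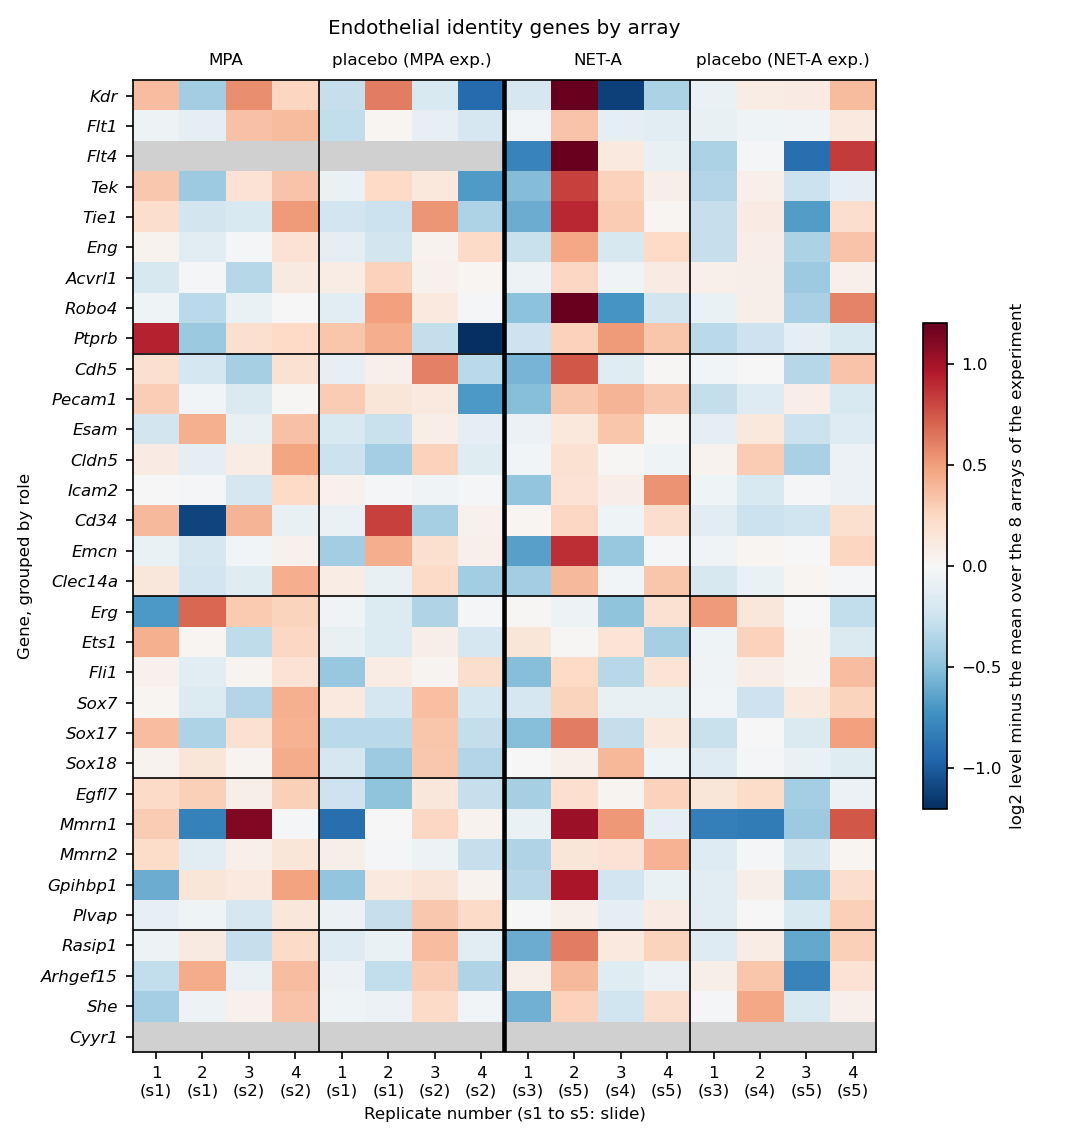
Heat map of the log2 level of each endothelial gene (rows, grouped by role) on each array (columns, with the slide in brackets), minus its mean over the 8 arrays of the same experiment; grey marks genes that could not be tested there, and the colour scale ends at 1.2 in either direction. NET-A replicate 2 was above the mean in 30 of 31 genes. NET-A replicate 1 and placebo N replicate 1 were above it in 5 of 31 each, and placebo N replicate 3 in 6 of 31. No group is of one colour.

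No endothelial gene passed the test in either comparison. With limma and Benjamini-Hochberg adjustment over all genes, the smallest adjusted p among the members was 0.759 for MPA (Egfl7) and 0.789 for NET-A (Ptprb). Over all genes, 0% of 15133 passed for MPA and 0% of 20909 for NET-A. At an unadjusted p under 0.05 there was 1 member of 30 for MPA and 1 of 31 for NET-A, against 6.2% and 6.14% of all genes tested. In no member were the groups free of overlap, against 3.69% of genes for MPA and 3.85% for NET-A. The 95% intervals lay within a 2-fold change in either direction for 26 of 30 members under MPA, the others being Kdr, Ptprb, Cd34 and Mmrn1. The same held for 26 of 31 under NET-A, the others being Kdr, Flt4, Tie1, Robo4 and Mmrn1. For these genes a 2-fold change cannot be told from none with 4 arrays a group.

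As a description, the middle of the list lay slightly above that of all genes in both comparisons. The median log2 change was 0.12 for MPA, with 21 of 30 members higher, against a median of 0.0019 and 50.3% of genes higher over all 15133. It was 0.12 for NET-A as well, with 22 of 31 members higher, against -0.021 and 45.9% over all 20909. These medians depended on single arrays and settings. The MPA median was 0.039 without MPA replicate 4 and 0.072 without placebo M replicate 4, and it was -0.025 after normexp background correction, with 13 members higher and 17 lower, and 0.21 with array weights. The NET-A median was 0.0011 without placebo N replicate 3, 0.0029 without NET-A replicate 2 and 0.21 without NET-A replicate 1. It was 0.062 with array weights and 0.065 with the mean of all probes of a gene.

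Among the 9 receptors and receptor-associated proteins, 6 of the 8 tested were higher and 2 lower under MPA, with a median of 0.18, and 7 of 9 were higher under NET-A, with a median of 0.12. The 9 include Flt4, which was well above background on only 3 NET-A arrays and 1 placebo N array. None of the receptors passed the test, and normexp background correction left 3 of 8 higher under MPA. Ptprb, the endothelial phosphatase that acts on the angiopoietin receptor Tek and on VE-cadherin, was measured by a probe at mm9 chromosome 10, 115820912 to 115820971. Its levels were 3.33, 3.85, 4.09 and 3.92 in NET-A aortas, against 3.26, 3.33, 3.46 and 3.40 in placebo N aortas. NET-A replicates 2, 3 and 4 stood above every placebo N array and replicate 1 among them. The change was 0.44 ± 0.17 SE (95% interval 0.036 to 0.83, limma adjusted p = 0.789), and it was positive within all 3 slides, at 0.072, 0.76 and 0.45. A second Ptprb probe that was well above background on every array gave -0.03, so the probes did not share a sign, and the mean of all Ptprb (NET-A minus placebo) probes gave 0.065. In the MPA experiment the Ptprb levels were 6.14, 4.78, 5.41 and 5.46 in MPA aortas and 5.55, 5.65, 4.94 and 3.82 in placebo M aortas. The low placebo array widened the spread, and the change of 0.46 ± 0.43 split between slides, at -0.15 and 1.06.

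Flt1, a VEGF receptor that also acts as a decoy, had the second smallest p of the members under MPA (probe at mm9 chromosome 5, 148373791 to 148373850). It stood at 3.17, 3.12, 3.58 and 3.60 in MPA aortas, against 2.93, 3.25, 3.13 and 3.02 in placebo M aortas. The MPA arrays of slide 2 were above every placebo array, while those of slide 1 lay within the placebo range. The change was 0.28 ± 0.17 (limma adjusted p = 0.845), and a second probe gave -0.14. With normexp the Flt1 (MPA minus placebo) change was -0.03. Under NET-A the levels were 1.97, 2.35, 1.89 and 1.89 against 1.92, 1.96, 1.97 and 2.12 in placebo N aortas, a change of 0.03 ± 0.14.

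Kdr, the main signalling receptor for VEGF-A, had the lowest change of all members under NET-A (probe at mm9 chromosome 5, 76329309 to 76329368). Its levels were 0.12, 1.55, -0.79 and -0.05 in NET-A aortas, against 0.25, 0.42, 0.42 and 0.71 in placebo N aortas. NET-A replicate 2 lay above the whole placebo group and the other 3 below it, which gave -0.24 ± 0.44. In the MPA experiment Kdr stood at 2.45, 1.66, 2.64 and 2.34 in MPA aortas and at 1.80, 2.70, 1.90 and 1.15 in placebo M aortas, with overlapping groups and a change of 0.39 ± 0.33.

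Robo4, a receptor that stabilises the vessel wall, and Acvrl1, the endothelial BMP receptor ALK1, had the lowest changes under MPA. Robo4 (mm9 chromosome 9, 37221537 to 37221596) was at 2.51, 2.24, 2.49 and 2.56 in MPA aortas and at 2.43, 3.05, 2.68 and 2.55 in placebo M aortas. Its change was -0.23 ± 0.17, negative within both slides, and the groups overlapped. Acvrl1, whose probe matches between 100967514 and 100967806 on mm9 chromosome 15, was at 0.07, 0.25, -0.08 and 0.37 in MPA aortas, against 0.35, 0.54, 0.31 and 0.28 in placebo M aortas. MPA replicates 1, 2 and 3 were below every placebo array and replicate 4 among them, a change of -0.22 ± 0.15 that was negative within both slides. Under NET-A, Robo4 ranged from 0.34 to 2.27, against 0.66 to 1.64 in placebo N, and changed by -0.10 ± 0.42. Acvrl1 ranged from -0.25 to 0.07 under NET-A, against -0.62 to -0.11 in placebo N, and changed by 0.12 ± 0.16.

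**Figure D2:**
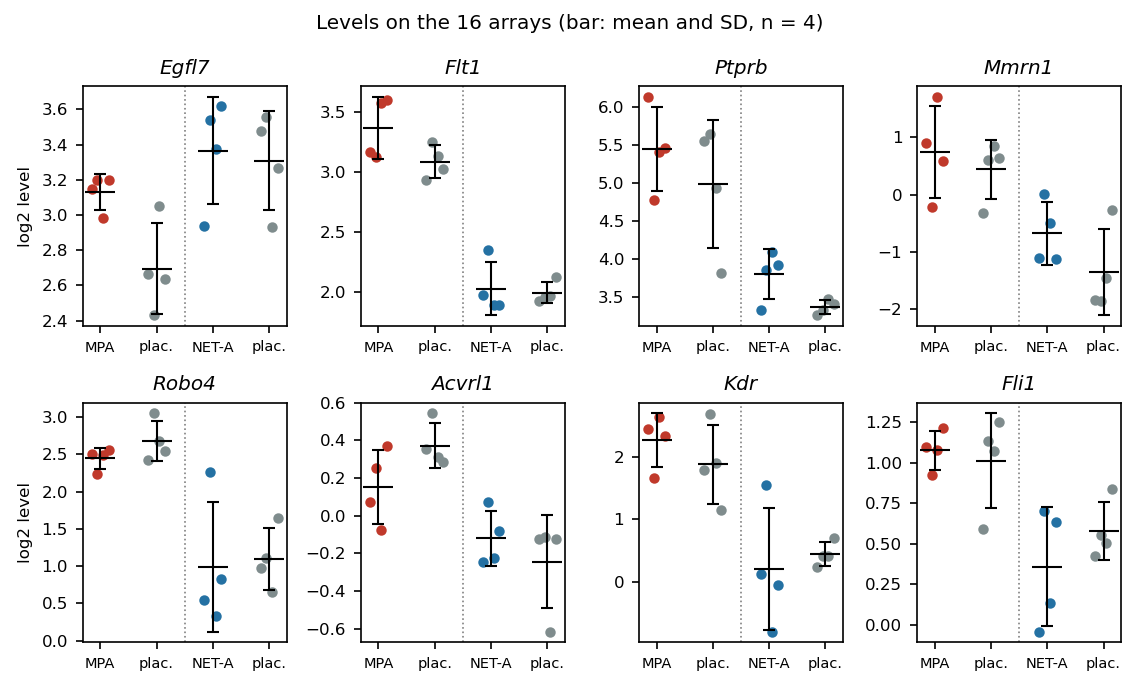
Log2 levels of 8 endothelial genes on the 16 arrays (points), with the mean and SD of each group of 4 (bars), for MPA, its placebo, NET-A and its placebo from left to right. The groups of each experiment overlap in all 8 genes; the axes differ between genes and levels are not comparable between genes.

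The 95% intervals of the other receptors included 0 in both comparisons. The angiopoietin receptor Tek gave 0.20 ± 0.25 for MPA and 0.32 ± 0.27 for NET-A. Its partner Tie1 gave 0.16 ± 0.25 and 0.32 ± 0.33, and the TGF-beta co-receptor Eng 0.03 ± 0.15 and 0.12 ± 0.23. Flt4 could be tested only in the NET-A experiment, at 0.23 ± 0.49.

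Of the 8 junction and adhesion genes, 5 were higher and 3 lower under MPA with a median of 0.03, and 7 were higher and 1 lower under NET-A with a median of 0.15. With normexp, 2 of 8 were higher under MPA, at a median of -0.32. Cdh5, which encodes VE-cadherin, changed by -0.12 ± 0.23 for MPA and 0.02 ± 0.28 for NET-A, while a second Cdh5 probe gave 0.28 for MPA and 0.46 for NET-A. Pecam1, the endothelial and platelet adhesion molecule, changed by 0.06 ± 0.23 and 0.27 ± 0.22. The tight junction gene Cldn5 gave 0.27 ± 0.20 for MPA and 0.05 ± 0.16 for NET-A. Esam, a junctional adhesion molecule also found on platelets, gave 0.24 ± 0.19 and 0.20 ± 0.14. Icam2, a constitutive ligand for leukocyte integrins, stood at 0.01 ± 0.14 for MPA, among the narrowest of the list, and at 0.16 ± 0.20 for NET-A. Its MPA change depended on the processing, running from -0.38 to 0.08 over the alternative fits (smallest limma adjusted p 0.148). The sialomucins Cd34 and Emcn gave -0.20 ± 0.37 and -0.13 ± 0.19 for MPA, and 0.22 ± 0.14 and -0.12 ± 0.31 for NET-A. Clec14a, a lectin-like receptor that binds multimerin 2, gave 0.10 ± 0.20 and 0.14 ± 0.19.

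The transcription factors were split between the progestins as a description, with 5 of 6 higher under MPA (median 0.24) and 1 of 6, Sox18, higher under NET-A (median -0.04). None of the 6 passed the test in either comparison, and none passed the test of the difference between the responses. With normexp, 3 of 6 were higher under MPA and 1 of 6 under NET-A. Fli1, which had the second lowest NET-A change of the members (probe at mm9 chromosome 9, 32231283 to 32231342), was at -0.04, 0.70, 0.14 and 0.63 in NET-A aortas, against 0.42, 0.55, 0.50 and 0.84 in placebo N aortas. NET-A replicates 1 and 3 were below every placebo array and the others within the placebo range, a change of -0.22 ± 0.20. Its MPA levels were 1.09, 0.92, 1.07 and 1.21, against 0.59, 1.13, 1.07 and 1.25 in placebo M aortas, a change of 0.06 ± 0.17. A second Fli1 probe gave -0.41 for MPA and -0.17 for NET-A. Erg gave 0.29 ± 0.27 for MPA and -0.17 ± 0.21 for NET-A, and Ets1 gave 0.19 ± 0.18 and -0.04 ± 0.17. Other Ets1 probes well above background on all 8 arrays gave 0.32 and 0.30 for MPA. For NET-A they gave -0.33, -0.26 and -0.63. Among the SOXF factors, Sox17 gave 0.30 ± 0.23 for MPA and -0.03 ± 0.27 for NET-A, Sox18 gave 0.33 ± 0.20 and 0.20 ± 0.13, and Sox7 gave -0.03 ± 0.21 and -0.05 ± 0.16.

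Of the secreted, lipoprotein-handling and diaphragm genes, 4 of 5 were higher under MPA and 5 of 5 under NET-A, with medians of 0.14 and 0.16. With normexp it was 3 of 5 and 5 of 5, and with quantile normalization 4 of 5 and 4 of 5. Egfl7, a secreted protein of the endothelial matrix, had the smallest p of all members under MPA (probe at mm9 chromosome 2, 26447977 to 26448036). It was at 3.15, 3.20, 2.98 and 3.20 in MPA aortas, against 2.66, 2.43, 3.05 and 2.63 in placebo M aortas. MPA replicates 1, 2 and 4 were above every placebo array, and MPA replicate 3 lay below placebo M replicate 3. The change was 0.44 ± 0.16, or 1.35-fold (95% interval 0.068 to 0.81, limma adjusted p = 0.759), and it was positive within both slides, at 0.62 and 0.25. With normexp the Egfl7 (MPA minus placebo) change was 0.096. Under NET-A it was at 2.94, 3.54, 3.37 and 3.62, against 3.48, 3.56, 2.93 and 3.27 in placebo N aortas, a change of 0.06 ± 0.20 with no order between the groups.

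Mmrn1, the multimerin stored in endothelial cells and platelets, had the highest NET-A change of all members (probe at mm9 chromosome 6, 60938883 to 60938942). Its levels were -1.10, 0.01, -0.49 and -1.12 in NET-A aortas, against -1.83, -1.85, -1.45 and -0.27 in placebo N aortas. Placebo N replicate 4 lay among the NET-A values and the other placebo arrays below all of them. The change was 0.68 ± 0.41 (95% interval -0.25 to 1.61, limma adjusted p = 0.886) and positive within all 3 slides. In the MPA experiment the levels were 0.90, -0.22, 1.70 and 0.58 in MPA aortas, against -0.31, 0.59, 0.84 and 0.63 in placebo M aortas, a change of 0.30 ± 0.40. A list of 11 platelet and megakaryocyte genes was higher in 11 of 11 genes under both progestins, with medians of 0.63 for MPA and 1.72 for NET-A, and its part in the Mmrn1 values was not tested. Mmrn2, a matrix protein of vessels, gave 0.14 ± 0.15 for MPA and 0.19 ± 0.18 for NET-A. Gpihbp1, which carries lipoprotein lipase to the capillary lumen, gave 0.08 ± 0.25 and 0.16 ± 0.30, and Plvap, the protein of endothelial diaphragms, gave -0.11 ± 0.17 and 0.02 ± 0.14.

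Of the 3 intracellular genes tested, 1 was higher under MPA and 2 under NET-A. Under MPA it was 2 of 3 with normexp, at a median of 0.22, and 2 of 3 with quantile normalization. Rasip1, a Rap and Ras effector needed for vessel lumens, gave -0.00067 ± 0.18 for MPA and 0.20 ± 0.29 for NET-A. Arhgef15 gave 0.22 ± 0.22 and 0.12 ± 0.26, and She, an SH2-domain adaptor, gave -0.04 ± 0.18 and -0.17 ± 0.23.

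**Figure D3:**
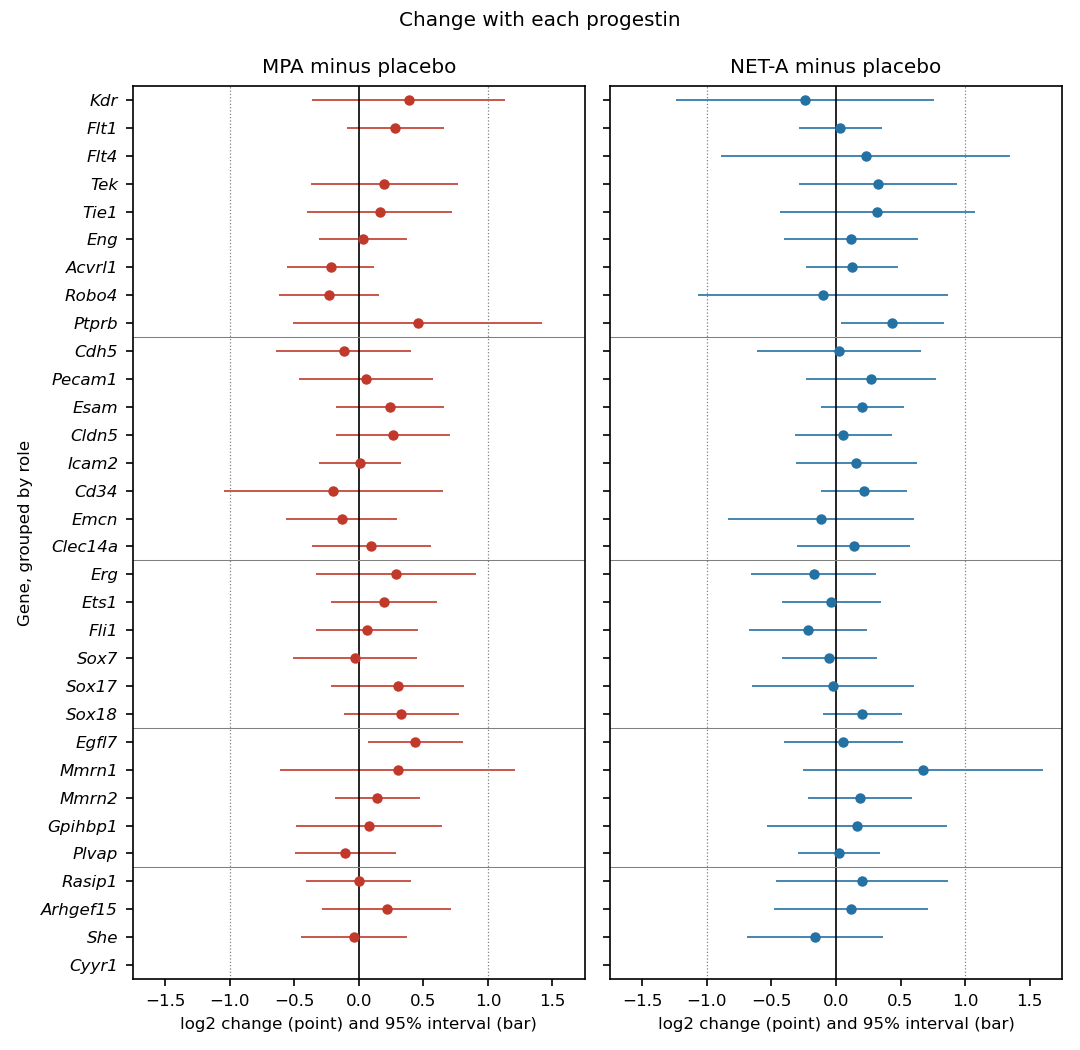
Log2 change (points) with its 95% interval (bars) of each endothelial gene for MPA minus placebo (left) and NET-A minus placebo (right), grouped by role; dotted lines mark a 2-fold change. Egfl7 for MPA and Ptprb for NET-A are the genes whose interval lies off 0, and neither passed the adjusted test.

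Agreement between slides was then examined, since each slide held both groups of an experiment. On slides 1 and 2 the MPA arrays always took one set of array positions and the placebo M arrays another. Treatment and position on the slide therefore cannot be told apart in the MPA experiment. In slide 1, 17 of 30 members were higher in MPA than in placebo M aortas (median 0.04), against 47.6% of all genes, and in slide 2 it was 21 of 30 (median 0.19), against 55.6%. In total 16 of 30 members kept 1 sign in both slides, against 51.1% of all genes. The NET-A slides ran from a median below 0 to one above it. Slide 3, with 1 array of each group, had 9 of 31 members higher (median -0.20, background 55.3%), and slide 4, also with 1 of each, had 14 of 31 (median -0.10, background 47.6%). Slide 5, with 2 of each, had 28 of 31 higher (median 0.36, background 41.7%). In all 3 slides 6 of 31 members had 1 sign, against 32.2% of all genes. These were Ptprb, Esam, Cd34, Sox18 and Mmrn1, all higher, and Fli1, which was lower in all 3 but at -4.3e-05 in slide 5.

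**Figure D4:**
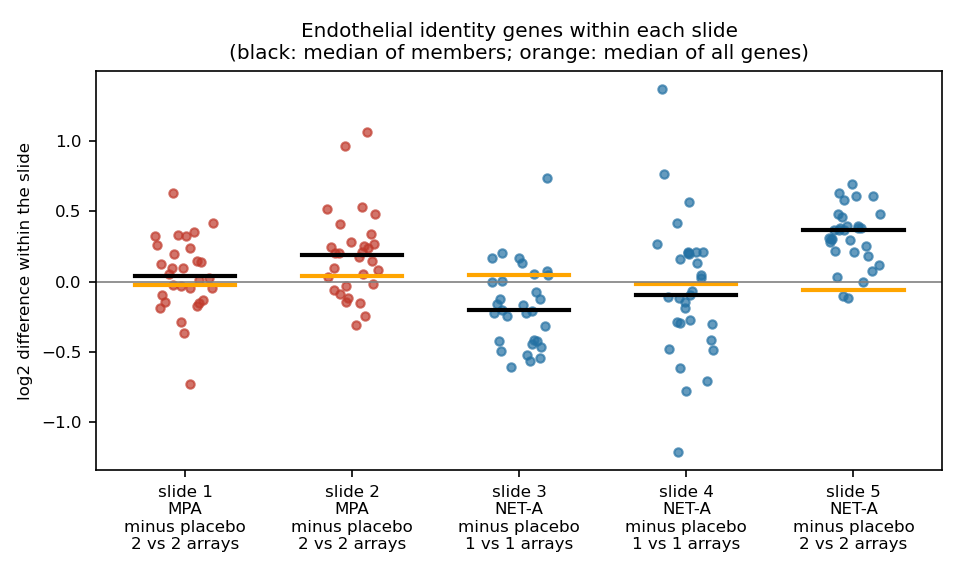
Log2 difference within each slide (points, 1 per endothelial gene), MPA minus placebo M in slides 1 and 2 and NET-A minus placebo N in slides 3 to 5, with the median of the members (black) and of all genes (orange). The members' median is -0.20 in slide 3 and 0.36 in slide 5.

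The members were also followed array by array. After subtraction of each gene's experiment mean, the median over the members was -0.34 on NET-A replicate 1, 0.32 on NET-A replicate 2, -0.04 on replicate 3 and 0.07 on replicate 4, against -0.12, 0.06, -0.22 and 0.17 on the placebo N arrays. In the MPA experiment it was 0.05, -0.12, 0.00 and 0.25 on the MPA arrays, against -0.11, -0.05, 0.13 and -0.17 on the placebo M arrays. Beside this, a list of 8 adipocyte genes stood at -0.98 on NET-A replicate 1 and 1.22 on NET-A replicate 2. The same arrays were lowest and highest for the members. On NET-A replicates 3 and 4 the adipocyte list stood at -0.11 and -0.06. It stood at 0.33, -0.06, -0.32 and 0.26 on the placebo N arrays, where replicate 1 was highest. For the members the highest placebo N array was replicate 4. In the MPA experiment the adipocyte list stood at -0.15, -0.13, 0.19 and 0.18 on the MPA arrays. On the placebo M arrays it stood at 0.05, 0.17, -0.06 and -0.24. All 8 adipocyte genes were below their mean on NET-A replicate 1. The list of 7 capillary genes stood at -0.64 and 0.58 on NET-A replicates 1 and 2, and between -0.27 and 0.20 on the placebo N arrays. The list of 9 smooth muscle genes ran the other way on these 2 arrays, at 0.18 on NET-A replicate 1 and -0.32 on replicate 2. It stood between -0.32 and 0.16 on the placebo N arrays. In the MPA experiment it stood at 0.37, 0.32, -0.17 and -0.15 on the MPA arrays. On the placebo M arrays it stood at 0.29, 0.11, -0.24 and -0.11. Between the groups, 7 of the 9 smooth muscle genes were higher under MPA (median 0.12) and 5 of 9 under NET-A (median 0.024). Of the 8 adipocyte genes, 3 were higher under MPA (median -0.013) and 4 under NET-A (median -0.043). In both lists 0 genes passed the test. The part of these lists in the members' levels was not tested.

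**Figure D5:**
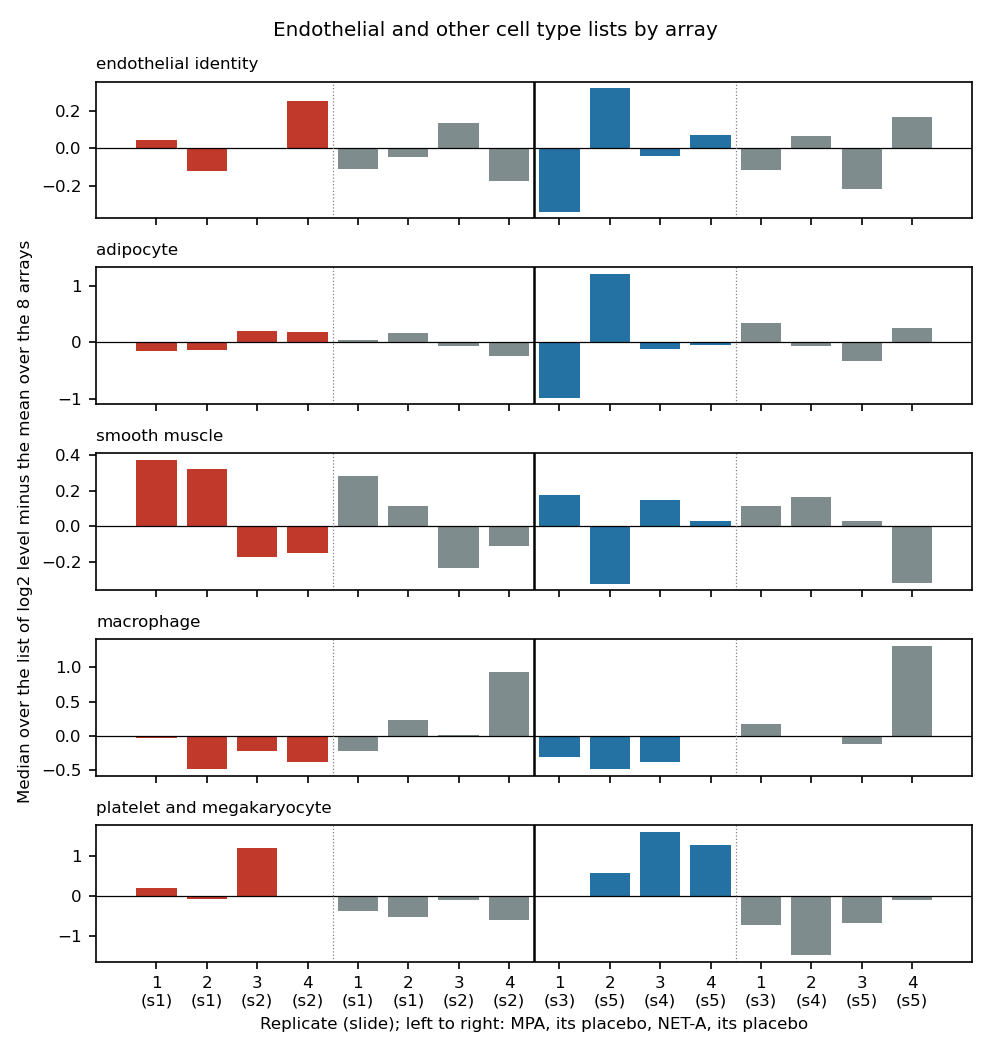
Median over each gene list of the log2 level minus its mean over the 8 arrays of the experiment, for each array (bars, coloured by group), with separate vertical scales for each list. NET-A replicates 1 and 2 are the lowest and highest of the NET-A experiment for both the endothelial and the adipocyte list. Placebo N replicate 1 is above 0 for the adipocyte list and below 0 for the endothelial list.

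The spread of a member about its group means had a median SD of 0.27 in the MPA experiment and 0.31 in the NET-A experiment, against 0.30 and 0.30 over all genes tested. Ptprb, Mmrn1, Cd34 and Kdr spread most in the MPA experiment, and Flt4, Kdr, Robo4 and Mmrn1 in the NET-A experiment. Several probes of a gene that were well above background on all 8 arrays gave 1 sign in 4 of 7 genes for MPA, all but Cdh5, Fli1 and Flt1. For NET-A they did so in 3 of 8, all but Flt1, Ptprb, Sox17, Sox7 and Tek.

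Between the 2 experiments many members had different levels, such as Cd34 at 7.06 to 8.28 in placebo M aortas and 4.38 to 4.82 in placebo N aortas. The experiments used different slides and scanner software, so experiment and group cannot be told apart and no test was made. The comparisons shared no arrays. Of the 30 members tested in both, 16 were higher under both progestins, 4 (Emcn, Robo4, She and Sox7) lower under both and 10 opposite, so that 66.7% shared a sign, against 49.3% of 15021 genes. The difference between the responses, MPA minus placebo less NET-A minus placebo, passed the test for no member and for 0% of genes, and 0 members had an unadjusted p under 0.05, against 6.79% of genes. The smallest adjusted p among the members was 0.809, for Acvrl1, at -0.34 ± 0.20. Kdr had the largest difference, at 0.63 ± 0.57 (95% interval -0.58 to 1.84), followed by Erg at 0.46 ± 0.36 and Cd34 at -0.41 ± 0.42.

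In 5 related lists of vessel genes, 0 genes passed in either comparison. Of 8 ligands for the VEGF and TIE receptors, 4 were higher under MPA and 7 under NET-A, with medians of 0.02 and 0.20. Among them Angpt4, an angiopoietin, changed by 1.08 ± 0.18 under NET-A (limma adjusted p = 0.605) and Figf, which encodes VEGF-D, by 0.60 ± 0.13 (limma adjusted p = 0.605), and in both the NET-A and placebo N arrays did not overlap. Under MPA, Vegfc gave 0.28 ± 0.15 and Angpt1 0.50 ± 0.37, and Angpt1 was well above background on only 4 of the 8 arrays of that experiment. Of the arterial, venous and Notch list, 8 of 19 were higher under MPA and 8 of 20 under NET-A, with Cxcr4 at -0.91 ± 0.34 and Notch1 at 0.61 ± 0.31 under MPA, and Efnb2 at 0.25 ± 0.13 and Hey2 at 0.36 ± 0.20 under NET-A. Of 5 lymphatic genes none was higher under MPA (Pdpn -0.71 ± 0.26, Reln -0.68 ± 0.44) and 2 were higher under NET-A (Lyve1 0.35 ± 0.27, against Ccl21a at -1.04 ± 0.55).

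For endothelial function and activation, 7 of 18 genes were higher under MPA and 10 of 19 under NET-A. Vcam1, the leukocyte adhesion molecule, gave -0.50 ± 0.20 under MPA and -0.80 ± 0.23 under NET-A (limma adjusted p = 0.638), with no overlap between NET-A and placebo N arrays. Tfpi, the inhibitor of tissue factor, gave -0.66 ± 0.22 under MPA, and the flow-induced factor Klf2 gave 0.49 ± 0.24 under NET-A. A macrophage list was lower in 8 of 8 genes under both progestins, with medians of -0.54 for MPA and -0.60 for NET-A, and its part in the Vcam1 values was not tested. Of 7 capillary genes, 2 were higher under MPA (Car4 0.45 ± 0.24; Rgcc, lower, -0.31 ± 0.25) and 3 under NET-A (Cd300lg 0.92 ± 0.37; Aqp1, lower, -0.27 ± 0.21).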

How the data were processed

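Per the file headers, Agilent Feature Extraction gave the background-subtracted intensity of each spot (version 10.7.1.1 in the MPA experiment, 11.0.1.1 in the NET-A experiment) on arrays annotated on mm9, and the deposited intensity was not normalized between arrays. Per the labels' protocols, 100 ng of total RNA was labelled with Cy3. The deposited log2 series table, made in a way not given in the sources used here, served as an alternative, and its scale, centring and direction are not stated. Probe names of the NET-A arrays were taken from the MPA arrays by probe identifier, giving 41174 probes.

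Spots flagged as outliers were left out, log2 intensity was scaled to the 75th percentile of each array, and spots of a probe were averaged. limma 3.58.1 (lmFit, eBayes, two-sided, threshold 0.05, R 4.3.3) was fitted in each experiment. It took all genes well above background on at least 4 of 8 arrays. The fit was also run on simulated arrays with known changes. Their noise was independent between arrays and held no slide effect, so they do not show how the fit handles slides. The number of arrays limits the precision. The placebo groups were matched to the progestin by slide and title letter. Alternatives were background correction, normalization, filters, probe summary, slide and replicate blocks, array weights, the series table and leaving out each array.

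The members and all other lists were chosen with earlier results of these data known. All 32 members are named. Array values are given for the members with the 2 smallest p, the 2 highest and the 2 lowest changes in each comparison, and the 2 genes with the smallest p are named in each of the 5 vessel lists. The remaining lists were cell type lists, for which counts and medians are given where a result touches them: adipocyte, macrophage, platelet and smooth muscle. Skeletal muscle genes, used below for placebo M replicate 3, were lower in 5 of 5 under MPA (median -2.26). Under NET-A 7 of 7 were higher (median 1.15). Neutrophil genes were higher in 4 of 4 under MPA (median 2.39) and 6 of 7 under NET-A (0.94). Erythroid genes were higher in 5 of 5 (1.07) and 6 of 6 (1.53). Over all genes 50.3% and 45.9% were higher. In these lists 0 genes passed, and their part in the members' levels was not tested. The other cell type lists were not used in the text.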

Additional observations from a re-analysis of the deposited data

Results flagged for a closer look

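Among 124 sets of 4 arrays, 6 had an array far from the other 3 by Dixon's criterion, where chance flags about 1 in 20. Of these, 4 came from placebo M replicate 3, which was high for Tie1 (1.60, the others 0.70 to 0.84), Sox17 (1.67, the others 1.01 to 1.06), Rasip1 (2.16, the others 1.64 to 1.71) and She (-0.76, the others -1.06 to -1.03). The same array stood apart in the 5 skeletal muscle genes, with a median of 5.18 after subtraction of each gene's experiment mean. That median lay between -0.995 and 0.88 on the other placebo M arrays and between -1.195 and -0.845 on the MPA arrays. Its part in the endothelial levels of placebo M replicate 3 was not tested. Pecam1 was low on NET-A replicate 1 (1.37, the others 2.21 to 2.29), and Acvrl1 was low on placebo N replicate 3 (-0.62, the others -0.12 to -0.11).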

How the results depend on the processing

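No endothelial gene passed the test in any of 21 alternative fits for MPA, 20 for NET-A and 26 for the difference between the responses, where the smallest adjusted p of a member was 0.148, 0.462 and 0.119. At most 2 genes of the whole array were called in any of these fits. The members' median change for MPA was -0.025 under normexp background correction, against 0.12, and the cause was not tested. For NET-A it was -0.20 within slide 3 and 0.36 within slide 5, which hold fewer arrays. Leaving out each array in turn moved the median from 0.039 to 0.169 for MPA and from 0.0011 to 0.212 for NET-A, and left 0 members called. With the replicate number as a block, 0 members passed for MPA, NET-A or the difference (smallest adjusted p 0.841, 0.771 and 0.826). Same-numbered arrays correlated by 0.23, -0.23, -0.06 and 0.07 in the MPA experiment and by 0.18, -0.33, -0.27 and 0.33 in the NET-A experiment, so the numbers were not taken as pairs. Progestin and placebo arrays of the same slide correlated by 0.14 to 0.47 in the NET-A experiment and by -0.23 to 0.26 in the MPA experiment. The main fit held no slide term, so its SE and p-values do not take slides into account. With slide as a block, 0 members passed. Normexp also moved the median of all genes to -0.126 for NET-A. Members near background, Flt4 and Cyyr1, are limited by signal.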
